A study of Danio rerio with 6 samples.

Results

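A group of 9 genes known from differentiated tissue, of 99 genes in the table used here, was followed in zebrafish embryos long before those tissues form. They were chosen by name: hoxb2a for hindbrain patterning, cntn2, csmd2 and gpm6bb for neurons, opn1mw4 for photoreceptors, actn3b and sypl2b for muscle, dnah7l for motile cilia and kirrela for the kidney slit diaphragm. Messenger RNA was sequenced from whole AB-strain embryos at 4.5 hours post fertilization, the 30% epiboly stage, with 50 pooled embryos in each library. Wild-type embryos (3 libraries) were compared with MZdgcr8 embryos (3 libraries), maternal zygotic mutants without maternal or zygotic Dgcr8. How these mutants were obtained is not stated in the labels, and the dgcr8 transcript was not analysed here. No sequence of these genes was given with the files, so none is printed.

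Dgcr8 binds primary microRNA transcripts and brings them to the nuclease Drosha, the first step in making canonical microRNAs. In zebrafish, microRNAs made at the start of zygotic transcription speed the clearance of messenger RNA that the mother placed in the egg. At 30% epiboly the blastoderm is spreading over the yolk and gastrulation has not begun, so there are no neurons, muscle fibres, photoreceptors, motile cilia or podocytes. A transcript of a differentiation gene found at this time may be maternal or zygotic, and these data do not separate the sources. In a whole-embryo pool, fewer cells with a transcript and less transcript per cell cannot be told apart either.

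Levels are given as FPKM, which divides the fragments of a gene by its transcript length and by the mapped fragments of the library, with the deposited counts beside them. None of the 594 count values in the table was 1, 2 or 3, while 11 were 4 and 33 were 0, so 1 count may not be 1 read and no counting interval is given. Summed over the 99 genes, counts ran from 358811 to 576050 per library, which is not the library depth, and relative depth ran from 0.797 to 1.14. Replicate 3 stood apart in both genotypes: replicates 1 and 2 correlated at 0.998 in each genotype (Pearson over 99 genes, log2(FPKM + 1)), against 0.901 to 0.939 with replicate 3. Genotype differences are therefore given over all libraries and for replicates 1 and 2 alone. No gene of a list of 33 blastula and gastrula markers was in the table, so the labelled stage was not checked against markers.

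In wild type, gpm6bb and sypl2b were present, at 1 FPKM or more in all 3 libraries. Csmd2, dnah7l and kirrela were near 0, under 0.1 FPKM in all 3, and cntn2, actn3b, opn1mw4 and hoxb2a lay between. These classes and the order by level depend on transcript length, by which FPKM divides. Kirrela had wild-type counts of 56, 27 and 23, against 8, 11 and 12 for hoxb2a and 31, 25 and 8 for opn1mw4. Among the wild-type libraries hoxb2a reached 0.1 FPKM only in replicate 3 (0.102). Of all 99 genes, 61 were present and 11 were near 0, and the median wild-type mean was 4.59 FPKM, against 0.186 FPKM for the 9 genes. By wild-type mean the order was gpm6bb, sypl2b, cntn2, actn3b, opn1mw4, hoxb2a, kirrela, csmd2 and dnah7l, from rank 38 to rank 98 of 99. The libraries of gpm6bb, sypl2b and cntn2 did not overlap with those of the next gene, nor did those of kirrela and csmd2. Neighbours from actn3b to kirrela overlapped, and so did csmd2 and dnah7l. With 0.5 FPKM as the limit cntn2 also counted as present, and with 0.05 FPKM as the limit kirrela was no longer near 0. By exact name, lists of 25 hindbrain, 38 neuron, 27 muscle, 28 motile cilium and 15 slit diaphragm genes held no gene of the table beyond these 9. The muscle list names titin genes as ttna and ttnb, while the table holds a titin gene under the name ttn.1, described below. None of 14 maternal and germ plasm genes was in the table, and of 10 microRNA processing genes only dicer1 was.

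**Figure D1:**
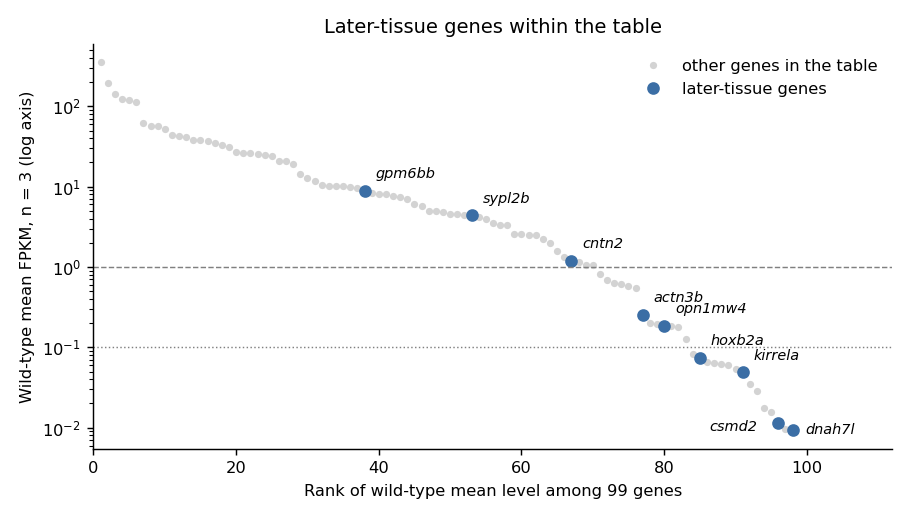
Wild-type mean FPKM (n = 3, log axis) of the genes in the table against their rank, with the 9 later-tissue genes in blue; the dashed and dotted lines mark 1 and 0.1 FPKM. The genes run from gpm6bb at rank 38 to dnah7l at rank 98 of 99, and 6 of the 9 lie below 1 FPKM.

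**Figure D2:**
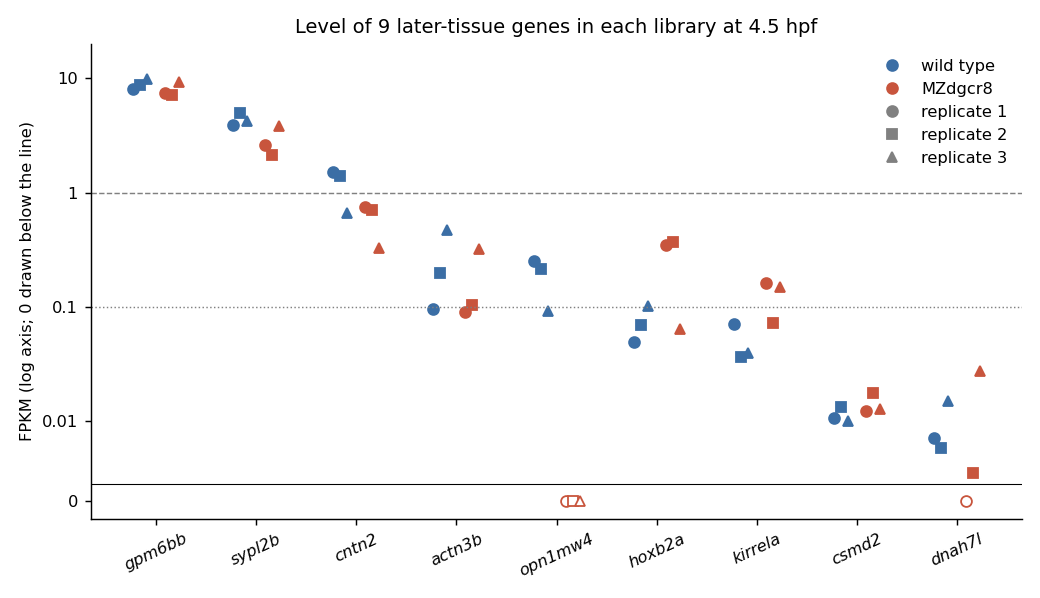
FPKM (log axis) of each gene in each library, with colour for genotype and shape for replicate number; open symbols under the solid line are values of 0. The MZdgcr8 libraries of opn1mw4 are all at 0, those of kirrela all lie above wild type, and those of sypl2b all lie below it.

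Over all 6 libraries 0 of the 9 passed the test of MZdgcr8 against wild type, made with edgeR's quasi-likelihood fit. With a mean of at least 1 FPKM required, 0 of 67 genes were called (percent called 0), sypl2b and gpm6bb among those tested. Here 5 of the 67 had an unadjusted p under 0.05, and DESeq2 and limma also called 0. With no minimum, so that all 9 genes could be tested, edgeR called 0 of 99 (percent called 0; 8 with an unadjusted p under 0.05, opn1mw4 among them). Limma then called 0 and DESeq2 called 4 of 99 (4.04%), with opn1mw4 as the 1 member. Genotype groups did not overlap for 3 of the 9 genes, opn1mw4 and sypl2b (lower in MZdgcr8) and kirrela (higher). The same held for 17 of the 99 genes (17.2%), 10 lower (10.1%) and 7 higher (7.07%).

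Within replicates 1 and 2 edgeR called 4 of the 9 genes, hoxb2a higher and cntn2, opn1mw4 and sypl2b lower in MZdgcr8. Of all 99 genes it called 51 (51.5%), 21 higher (21.2%) and 30 lower (30.3%), so a share of 4 in 9 is near the background. DESeq2 called the same 4 members and 51 of 99 genes (51.5%). Limma on log2(FPKM + 1) called these 4 and gpm6bb, which was lower, and 50 of 99 genes (50.5%). The median log2 change over the 8 members without a group at 0 was -0.39 here, against -0.16 over 99 genes. Over all 6 libraries it was -0.04 against -0.17. The medians over 99 genes include the genes with a group at 0. Whether replicates came from separate clutches is not in the labels, so a p-value covers only the spread between libraries, which may be technical. Exact permutation of 3 against 3 libraries cannot go below p = 0.1.

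The homeobox gene hoxb2a (ENSDARG00000000175) encodes a transcription factor that helps set the identity of hindbrain segments after gastrulation. Wild-type replicates 1, 2 and 3 held 0.0495, 0.0689 and 0.102 FPKM of it, with counts of 8, 11 and 12. The MZdgcr8 libraries were at 0.350, 0.368 and 0.0643 FPKM, with counts of 54, 60 and 9. Replicates 1 and 2 of MZdgcr8 were thus the only libraries clearly above the rest, and replicate 3 lay within the wild-type range. Within the first 2 replicates hoxb2a was 5.79-fold higher in MZdgcr8 (log2 2.53 ± 0.59 SE, edgeR adjusted p = 0.00552), and without MZdgcr8 replicate 2 the adjusted p was 0.0547. Over all 6 libraries the edgeR change was log2 1.79 ± 0.85 SE (adjusted p = 0.482), with means of 0.261 ± 0.171 and 0.0735 ± 0.0266 FPKM (SD, n = 3).

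For hoxb2a the genotype difference was log2 2.82 and 2.42 in pairs 1 and 2 and -0.67 in pair 3. The interaction of genotype with replicate set (replicate 3 against replicates 1 and 2) was log2 -3.07 ± 1.20 SE, with an adjusted p of 0.0809 in edgeR. It passed in limma with pseudocounts of 1 (adjusted p = 0.0211) and 0.1 (0.00652) and in edgeR with a minimum of 0.1 FPKM (0.0398), but not in DESeq2 (0.206). These were the only 3 calls in 8 settings with all libraries kept. EdgeR called 35 of 99 such interactions (35.4%) with no minimum, hoxb2a not among them. The error of this term comes only from replicates 1 and 2, as each genotype has a single replicate 3 library.

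Among the 3 neuronal genes, cntn2 (ENSDARG00000000472) encodes contactin 2, an immunoglobulin-family adhesion protein of axons. Its wild-type levels were 1.52, 1.39 and 0.659 FPKM (counts 370, 315 and 114), and its MZdgcr8 levels were 0.742, 0.710 and 0.328 FPKM (counts 173, 176 and 62). Groups overlapped, because wild type replicate 3 lay below MZdgcr8 replicates 1 and 2, yet each MZdgcr8 library was below the wild-type library of the same number. The log2 ratios within pairs were -1.03, -0.97 and -1.01. Without replicate 3, cntn2 was lower in MZdgcr8 (log2 -1.00 ± 0.15 SE, edgeR adjusted p = 0.000427).

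Over all 6 libraries the change of cntn2 had the same size (log2 -1.00 ± 0.55 SE) and no call in edgeR (adjusted p = 0.612). With the replicate number as a block it was log2 -1.00 ± 0.20 SE (adjusted p = 0.0839). With replicate set as a covariate and no minimum, a fit added after the data were seen, it was called lower (log2 -1.00 ± 0.19 SE, adjusted p = 0.0265), as were 11 of 99 genes (11.1%). Replicate 3 lay below replicates 1 and 2 by -1.14 in wild type and -1.15 in MZdgcr8 (log2).

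The membrane glycoprotein gene gpm6bb (ENSDARG00000001676) belongs to the proteolipid family, whose mammalian member M6B is found in neurons and myelinating glia. It had the highest level of the 9 genes, with wild-type values of 8.12, 8.72 and 9.85 FPKM (counts 1696, 1688 and 1458). Its MZdgcr8 values were 7.41, 7.14 and 9.37 FPKM (counts 1475, 1511 and 1517). Replicate 3 was the highest library in each genotype, and the groups overlapped. The genotype change was log2 -0.16 ± 0.31 SE over all libraries (edgeR adjusted p = 0.898) and -0.21 ± 0.09 in replicates 1 and 2 (adjusted p = 0.0747). The median over the 67 tested genes in replicates 1 and 2 was already -0.15. With TMM the change of gpm6bb there was -0.10 (edgeR adjusted p = 0.150), and with RLE it was -0.069 (0.486). In replicates 1 and 2 it was called lower by edgeR without wild type replicate 1 (log2 -0.26, adjusted p = 0.0398) and by limma with no minimum, but not by limma with a minimum of 1 FPKM (adjusted p = 0.0503). The coefficient of variation between wild-type libraries was 9.88%, the lowest of the 9 genes, and the highest was 76.4%, that of actn3b.

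The third neuronal gene, csmd2 (ENSDARG00000001559), encodes a large transmembrane protein with CUB and Sushi domains that is found at synapses in the mouse. All 6 libraries were near 0, with 0.0106, 0.0134 and 0.0100 FPKM for wild type and 0.0124, 0.0175 and 0.0127 FPKM for MZdgcr8. Counts were 13, 15 and 9 against 14, 21 and 12. Values were slightly higher in MZdgcr8 in each pair, but the groups overlapped and the edgeR change was log2 0.28 ± 0.70 SE (adjusted p = 0.914). Its standard error is larger than the change.

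The photoreceptor gene opn1mw4 (ENSDARG00000000638) encodes a green-sensitive cone opsin. Its wild-type levels were 0.250, 0.216 and 0.0928 FPKM (counts 31, 25 and 8), and it was listed at 0 in all 3 MZdgcr8 libraries. Every wild-type library therefore lay above every MZdgcr8 library, and no fold change is given against a group at 0. In edgeR the adjusted p was 0.190 over all libraries (unadjusted p = 0.00468) and 0.00969 in replicates 1 and 2. In the comparison of replicates 1 and 2 it was 0.0691 without wild type replicate 1 and 0.0536 without wild type replicate 2. DESeq2 gave an adjusted p of 0.00122 over all libraries. The gene has close paralogs, and how reads shared between copies were counted is unknown.

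Of a list of 21 photoreceptor genes, the table held 1 besides opn1mw4. This was pde6a, named for the alpha subunit of the rod phosphodiesterase, although the separate table of gene names gives its identifier the symbol PDE6B. Wild-type libraries had 0.226, 0.292 and 0.0601 FPKM (counts 62, 74 and 12). MZdgcr8 libraries had 0.146, 0.0910 and 0 FPKM (counts 39, 26 and 0). Each MZdgcr8 library was below the wild-type library of the same number, but the groups overlapped. In replicates 1 and 2 the change of pde6a was log2 -1.09 ± 0.44 SE, with no call in edgeR (adjusted p = 0.0631).

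Of the 2 muscle genes, actn3b (ENSDARG00000001431) encodes alpha-actinin 3, which crosslinks actin at the Z-discs of fast fibres. The wild-type values were 0.0953, 0.196 and 0.469 FPKM (counts 40, 77 and 140), and the MZdgcr8 values 0.0899, 0.105 and 0.319 FPKM (counts 36, 45 and 104). The highest library of each genotype was replicate 3, and the genotypes overlapped. The genotype change was log2 -0.57 ± 0.81 SE over all libraries (edgeR adjusted p = 0.882) and -0.58 ± 0.47 in replicates 1 and 2 (adjusted p = 0.340). Without wild type replicate 3 the former was 0.23, and without wild type replicate 2 the latter was 0.039.

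The other muscle gene, sypl2b (ENSDARG00000000690), encodes a synaptophysin-like membrane protein whose mouse counterpart sits at the triad junctions of skeletal muscle. Its wild-type levels were 3.91, 5.02 and 4.22 FPKM (counts 674, 803 and 516). In MZdgcr8 they were 2.63, 2.14 and 3.83 FPKM (counts 433, 374 and 513). All MZdgcr8 libraries lay below all wild-type libraries, with MZdgcr8 replicate 3 just under the lowest wild-type value. With replicate 3 set aside the gene was 1.87-fold lower (log2 -0.90 ± 0.17 SE, edgeR adjusted p = 0.00375), where 27 of 67 genes (40.3%) were called lower.

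Over all 6 libraries wild type averaged 4.38 ± 0.576 FPKM of sypl2b and MZdgcr8 2.87 ± 0.874 FPKM (SD, n = 3), log2 -0.61 ± 0.44 SE in edgeR (adjusted p = 0.898). With the replicate number as a block the change was log2 -0.65 ± 0.31 SE (adjusted p = 0.223), in a fit that called 5 of 67 genes (7.46%), neither sypl2b nor gpm6bb among them. Within pairs the log2 ratios were -0.57, -1.23 and -0.14, so the smallest difference was that of replicate 3. The interaction with replicate set was log2 0.77 ± 0.28 SE, with no call in edgeR (adjusted p = 0.0673). With TMM scaling it passed (0.60, adjusted p = 0.0365), the 1 call in 9 settings with all libraries kept. With no minimum edgeR called 35 of 99 such interactions (35.4%), sypl2b not among them, and the calls with TMM are counted below. Without wild type replicate 1 the value was 0.94, and without MZdgcr8 replicate 1 it was 0.92. Those fits leave 1 library of replicates 1 and 2 in a genotype, so no p-value is given. The interaction did not pass with RLE (edgeR adjusted p = 0.0557), in limma with pseudocounts of 1 (0.0729) and 0.1 (0.0770) or in DESeq2 (0.173).

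The cilium gene dnah7l (ENSDARG00000000606) encodes an axonemal dynein heavy chain, a motor of beating cilia, and carries the symbol DNAH6 in the separate table of gene names. It was the lowest of the 9 genes, with wild-type values of 0.00705, 0.00577 and 0.0149 FPKM (counts 8, 7 and 13). In MZdgcr8 it was listed at 0 in replicate 1 and at 0.00348 and 0.0272 FPKM in replicates 2 and 3 (counts 5 and 24). Replicate 3 was the highest library in each genotype, and the genotypes overlapped. The edgeR change was log2 0.071 ± 1.41 SE over all libraries (adjusted p = 0.981) and -1.58 ± 2.09 in replicates 1 and 2 (adjusted p = 0.553), where MZdgcr8 replicate 2 alone was above 0 among the mutants.

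The slit diaphragm gene kirrela (ENSDARG00000001634) encodes an immunoglobulin-family adhesion protein related to Neph1, which joins with nephrin between the foot processes of podocytes. Wild-type levels were 0.0702, 0.0367 and 0.0392 FPKM (counts 56, 27 and 23), and MZdgcr8 levels were 0.161, 0.0717 and 0.148 FPKM (counts 122, 58 and 91). All MZdgcr8 libraries lay above all wild-type libraries, the nearest being MZdgcr8 replicate 2 at 0.0717 and wild type replicate 1 at 0.0702 FPKM. The edgeR change was log2 1.36 ± 0.60 SE over all libraries (adjusted p = 0.482) and 1.11 ± 0.48 in replicates 1 and 2 (adjusted p = 0.0780), so kirrela passed in neither. The value in replicates 1 and 2 was 0.42 without MZdgcr8 replicate 1, 0.72 without wild type replicate 2, 1.58 without MZdgcr8 replicate 2 and 1.66 without wild type replicate 1, with no call in any.

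**Figure D3:**
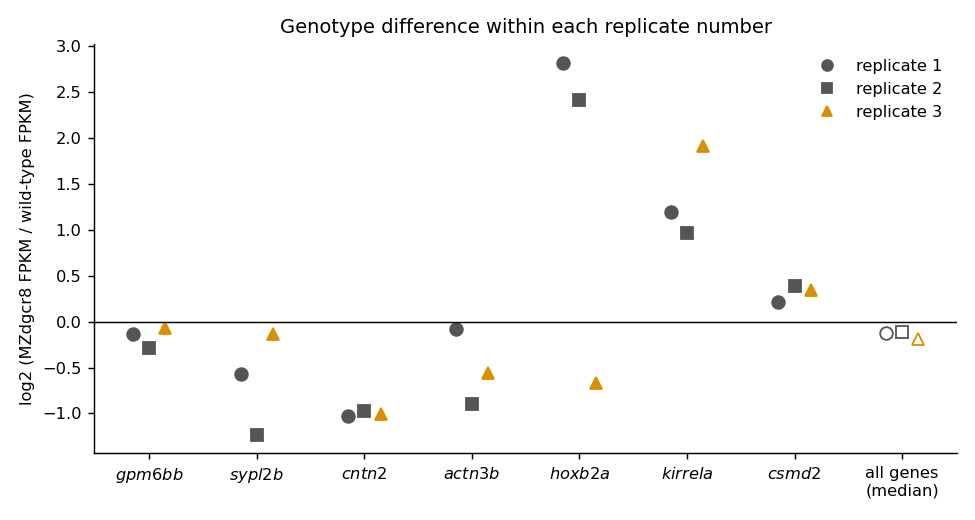
Log2 ratio of MZdgcr8 to wild-type FPKM within each replicate number for the 7 genes with no value of 0. Open symbols are medians over the genes of the table above 0 in both libraries (92, 92 and 87 genes for replicates 1, 2 and 3). The ratios of cntn2 lie between -1.03 and -0.97, while those of hoxb2a are 2.82, 2.42 and -0.67.

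**Figure D4:**
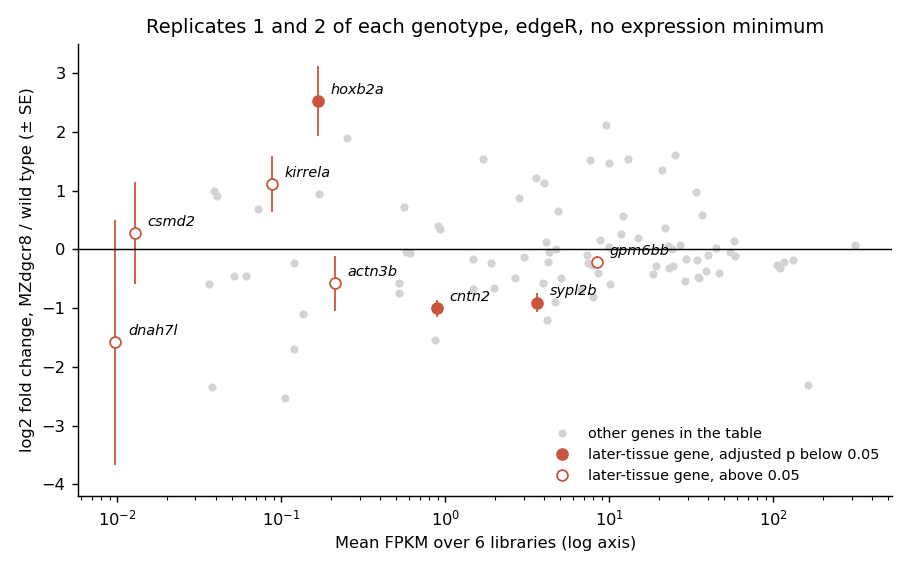
Log2 fold change between MZdgcr8 and wild type in replicates 1 and 2 (edgeR, no expression minimum, bars are SE) against mean FPKM over the 6 libraries (log axis); opn1mw4 and other genes with a group at 0 in these replicates are left out. Filled red points, hoxb2a, cntn2 and sypl2b, have an adjusted p below 0.05.

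Within pairs, 5 of the 9 genes were lower in MZdgcr8 in 3 of 3 (cntn2, opn1mw4, actn3b, gpm6bb and sypl2b) and 2 were higher in 3 of 3 (csmd2 and kirrela). Of the 99 genes, 38 (38.4%) were lower in 3 of 3 and 16 (16.2%) were higher in 3 of 3. Pairs are those of the replicate numbers, which the labels do not explain.

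Replicate 3 differed from replicates 1 and 2 in actn3b and cntn2, in opposite directions. With genotype in the model, actn3b was 3.23-fold higher in replicate 3 (log2 1.69 ± 0.39 SE, edgeR adjusted p = 0.0129), and without MZdgcr8 replicate 1 the adjusted p was 0.0574. The shift of actn3b was log2 1.69 in wild type and 1.71 in MZdgcr8. For cntn2 the shift was log2 -1.14 ± 0.21 SE (adjusted p = 0.00620). With no minimum edgeR called such a shift for 2 of the 9 genes and for 56 of 99 genes (56.6%). DESeq2 (64 of 99 genes) and limma (59 of 99) each called 3 of the 9, with gpm6bb as the third. With a minimum of 1 FPKM edgeR also called gpm6bb as higher (log2 0.30 ± 0.10 SE, adjusted p = 0.0372), where 52 of 67 genes (77.6%) passed in either direction. With all libraries kept, gpm6bb was called in 7 of 9 settings, but leaving out any library other than wild type replicate 3 ended its call.

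The replicate 3 values depend on scaling, because TMM moved the median change of all tested genes by 0.53 and RLE by 0.64 on the log2 scale. Relative to these scalings cntn2 was at -0.66 (TMM, edgeR adjusted p = 0.0521) and -0.55 (RLE, 0.0937) and lost its call. Under the same scalings sypl2b was at 0.84 (adjusted p = 0.0217) and 0.96 (0.0208) and gained one, from 0.32 ± 0.26 SE at the authors' depth (0.299). The calls over 67 genes, 10 higher and 42 lower at the authors' depth, became 19 and 27 with TMM and 24 and 24 with RLE. For actn3b the change was 2.18 with TMM and 2.29 with RLE, with a call in both. For gpm6bb it was 0.82 with TMM (adjusted p = 0.00106) and 0.94 with RLE (0.00113), against 0.30 at the authors' depth.

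**Figure D5:**
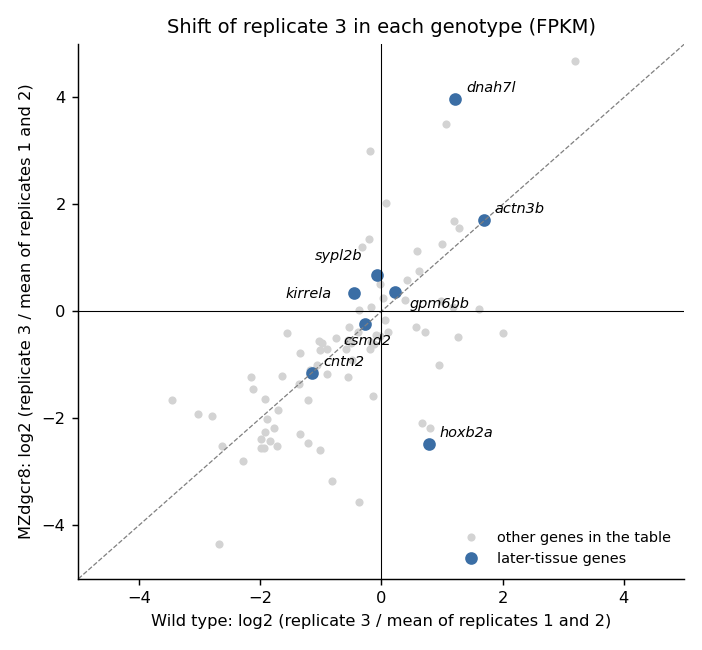
Log2 ratio of replicate 3 to the mean of replicates 1 and 2 in FPKM, wild type on the horizontal and MZdgcr8 on the vertical axis; the dashed line marks equal shifts. Actn3b (1.69 and 1.71) and cntn2 (-1.14 and -1.15) lie on the line, hoxb2a (0.79 and -2.48) lies far below it, and opn1mw4 has no MZdgcr8 value.

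For the 2 members with a mean of at least 1 FPKM, the gene with the most similar course over the 6 libraries was sought among the 67 tested genes, by Pearson correlation of log2(FPKM + 1). It was arl14ep for gpm6bb (0.977) and puf60b for sypl2b (0.925). With 6 libraries, of which both replicate 3 libraries stand apart, these values describe the shared library differences as well.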

How the data were processed

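The authors deposited FPKM values and counts per gene and library in 1 table, per the file headers. The submitters' processing notes name Bowtie 0.12.2, HISAT2 2.0 and StringTie 1.3.0, without roles, and the mouse build mm8. Coordinates are left out, with the zebrafish build and strand setting not given in the sources used here. All 99 identifiers matched the table of gene names.

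Relative depth came from the ratio of count to FPKM over the 58 genes above 200 counts throughout (largest deviation 0.0048, log2) and replaced the column totals as library size. EdgeR 4.0.16 (quasi-likelihood, R 4.3.3) was fitted on the whole table, with Benjamini-Hochberg adjusted two-sided p-values and a threshold of 0.05. Genes needed a mean of 1 FPKM. Members below it were tested with no minimum. Standard errors follow from the fold change and F statistic. Alternatives used DESeq2 1.42.0, limma 3.58.1, TMM, RLE, other minima, counts divided by 4, a replicate block and left-out libraries. The fits were tested on simulated data, a check of the code that does not measure their error at the spread of these libraries.

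The main tests did not pair the libraries. Replicate numbers served as pairs only for the ratios within pairs and the replicate block. The replicate 3 shift, the interaction and the replicate set covariate also took replicate 3 of both genotypes as 1 set. Deviations from the group means correlated at 0.77, 0.76 and 0.80 for numbers 1, 2 and 3. These correlations rest on replicate 3, since wild type 1 with MZdgcr8 2 (0.71) and wild type 2 with MZdgcr8 1 (0.82) correlated as well. They therefore do not show that numbers 1 and 2 form pairs. Members and lists were chosen with earlier results of these data known. All 9 members are named, with the most similar gene for each member at 1 FPKM or more and the genes of the lists found in the table.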

Additional observations from a re-analysis of the deposited data

How the results depend on the processing

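Over all libraries the 0 calls among 67 genes became 2 with RLE, 5 with the replicate block, and 26 with replicate set as a covariate (21 of 99 with no minimum, an alternative chosen after seeing the data). Leaving out libraries gave 0 to 43, with 3 without MZdgcr8 replicate 3 and 43 without replicate 3 of both genotypes. The block with no minimum gave 0, and the block changed no call of the 9 genes. In replicates 1 and 2 the calls, 16 higher and 27 lower, became 21 and 20 with TMM and 22 and 19 with RLE. The interaction calls, 11 higher and 17 lower, became 9 and 27 with TMM. The direction reversed without 1 library for actn3b over all libraries (0.23 without wild type replicate 3, range -1.37 to 0.23) and in replicates 1 and 2 (0.039 without wild type replicate 2, range -1.01 to 0.039), and for the replicate 3 shift of sypl2b (-0.080 without MZdgcr8 replicate 3, range -0.080 to 0.69). That of dnah7l over all libraries (0.071) reversed with the replicate block (-0.72), with replicate set as a covariate (-0.57) and without wild type replicate 1 or 2, MZdgcr8 replicate 3 or both replicate 3 libraries (range -2.09 to 0.66 over left-out libraries). The cause was not tested. In replicates 1 and 2, cntn2 and sypl2b were called in all alternatives run, at log2 -1.06 to -0.51 and -1.08 to -0.69. With counts divided by 4 the standard errors over all libraries were 0.61 for csmd2 (0.70 undivided), 0.80 for hoxb2a (0.85) and 2.95 for dnah7l (1.41).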

Other observations

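Some other genes of neurons and muscle in the table were picked by name after it was read, and their names are not in the lists. Titin genes are in the muscle list only under the names ttna and ttnb. The titin gene ttn.1, the giant spring protein of the sarcomere, had counts of 308 to 656 but only 0.0428 to 0.106 FPKM, since FPKM divides by transcript length. In replicates 1 and 2 it was called higher in MZdgcr8 (log2 0.69 ± 0.15 SE, edgeR adjusted p = 0.00383). Of all 99 genes 21 (21.2%) were called higher there, and actn3b had no call. In replicate 3 the order was the opposite, with 0.0803 FPKM in MZdgcr8 and 0.106 FPKM in wild type (interaction log2 -1.09 ± 0.26 SE). Over all 6 libraries ttn.1 had no call (log2 0.22 ± 0.48 SE, edgeR adjusted p = 0.914). The vesicular glutamate transporter gene slc17a6a had wild-type values of 2.05, 2.12 and 0.523 FPKM (counts 469, 450 and 85). Its MZdgcr8 values were 1.87, 1.87 and 0.360 FPKM (counts 409, 435 and 64). Slc17a6a was lower in replicate 3 by -2.18 ± 0.21 (log2, SE, edgeR adjusted p = 0.000728) and had no genotype call. In that fit 56 of 99 genes (56.6%) were called for replicate 3, and the median over 99 genes was log2 -0.65 at the authors' depth. The synaptic gene rimbp2 ranged from 0 to 0.170 FPKM (counts 0 to 62), with no genotype call in edgeR.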
